A study of Mus musculus with 21 samples.

Results

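The gastric transcriptome of K19-Nog/C2mE mice was compared with that of K19-Nog mice, so that both sides of the comparison carried the noggin transgene and differed in C2mE. The comparison takes 5 of the 21 arrays of the series, 3 from K19-Nog/C2mE mice and 2 from K19-Nog mice, which are all the arrays of these genotypes, with 1 array per mouse. RNA came from the glandular stomach of C57BL/6 mice that the labels give as female, and the ages given for the series run from 18 to 65 weeks without an age for each mouse. C2mE stands for the joint transgenes COX-2 (Ptgs2, cyclooxygenase 2) and mPGES-1 (Ptges, microsomal prostaglandin E synthase 1), and Nog encodes noggin. Each transgene is driven by the K19 promoter, active in gastric epithelium, and K19-Nog/C2mE mice serve as a model of gastric hamartoma. The remaining 16 arrays, from K19-C2mE and wild-type mice (3 each) and from K19-Wnt1/C2mE and K19-Wnt1 mice (5 each), were used to estimate the spread and to ask whether C2mE acted differently on the noggin background. No source says whether mice of 1 genotype were littermates, so the p-values measure the spread between these mice, and K19-Nog has only 2 of them.

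Prostaglandin E2 is made from arachidonic acid by cyclooxygenase and then by a terminal synthase, and acts on neighbouring cells through 4 G protein coupled receptors, encoded by Ptger1 to Ptger4. Bone morphogenetic proteins (BMPs) are secreted ligands that signal through Smad proteins and favour differentiation in gut epithelium, and noggin binds BMPs and keeps them from their receptors. The glands of the stomach corpus hold acid-secreting parietal cells, zymogen-secreting chief cells, mucous neck cells, surface (foveolar) mucous cells and hormone-secreting endocrine cells. Loss of parietal cells in mice is often accompanied by a mucous metaplasia called SPEM (spasmolytic polypeptide expressing metaplasia), in which glands express Tff2, Wfdc2, Clu and Cd44.

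Values are log2 of the RMA signal, so 1 unit is a 2-fold difference, and the values of single mice are given in the order of their label numbers. Median signals of the 21 arrays lay between 66.0 and 68.8 on the linear scale. The 25th percentile of the log2 signal was 4.45 to 4.50 on the K19-Nog/C2mE arrays. Readings below it are near the floor, where neither a tight spread nor the size of a fall is precise. All K19-Nog/C2mE readings of Ptger3, Scg2, Sostdc1, Vip and Adipoq, given further on, lay below it. Over all probe sets, Pearson's r was 0.98 to 0.99 among the K19-Nog/C2mE arrays, 0.99 between the K19-Nog arrays and 0.95 to 0.97 between the genotypes. Array 3 of K19-Nog/C2mE stood apart from arrays 1 and 2 in several groups of genes, and the K19-Nog arrays differed from each other in others, as given with each group. All 5 compared arrays had high Xist (12.65 to 12.99) and low Kdm5d (2.78 to 2.95), a Y-linked gene. By contrast, 9 of the other 16 arrays, 2 each of K19-C2mE and wild-type, 1 of K19-Wnt1/C2mE and 4 of K19-Wnt1, had Kdm5d between 7.07 and 7.66 and Xist between 6.18 and 7.43, against their label of female. The tests between backgrounds and the differences between K19-Nog and wild-type stomachs are given with and without these arrays, which leaves 1 wild-type array.

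Ptgs2, which the transgene encodes, read 9.80, 9.59 and 9.71 in K19-Nog/C2mE stomachs, against 7.27 and 7.52 in K19-Nog stomachs. The groups did not overlap, as in 9466 (52%) of the 18193 genes tested, and Ptgs2 was up-regulated by 2.30 ± 0.28 (log2 difference ± SE, limma with Benjamini-Hochberg adjustment, adjusted p = 4.11e-06). Ptges did not pass the test (6.20, 6.43 and 6.81 against 6.22 and 6.34, adjusted p = 0.56). Nog, carried by both genotypes, read 4.22, 4.23 and 5.68 in K19-Nog/C2mE and 4.52 and 4.56 in K19-Nog stomachs, against a wild-type mean of 4.46, so that its probe set did not show the transgene in K19-Nog stomachs. Whether the probes for Ptges and Nog lie within the transgene transcripts is not given in the sources used here, and these readings check neither label.

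Among the receptors, Ptger4 rose and Ptger3 fell. Ptger4, which couples to cyclic AMP, read 9.99, 10.05 and 10.28 in K19-Nog/C2mE against 7.65 and 7.98 in K19-Nog stomachs (2.29 ± 0.25, adjusted p = 1.37e-06). Ptger3, whose product couples mainly to inhibitory G proteins, read 4.04, 4.44 and 2.98 against 7.91 and 8.05 (-4.16 ± 0.39, adjusted p = 2.60e-07). The groups were apart for both genes, in opposite directions. The Ptger3 readings in K19-Nog/C2mE stomachs all lay below the 25th percentile of those arrays (4.45 to 4.50), near the floor. The size of the Ptger3 fall is therefore not precise. Ptger2, a cyclic AMP coupled receptor, and Ptgfr, a receptor for a related prostaglandin, also fell (-1.01 and -1.15), as did Ptgis, the prostacyclin synthase (-2.19 ± 0.24, adjusted p = 1.43e-06). Of 20 measured genes for prostaglandin synthesis, reception and clearance, 5 rose, 5 fell and 10 did not pass, with a median of -0.07. The 5 that rose became 3 without either K19-Nog array. The export pump gene Abcc4, for example, rose by 1.09 ± 0.25 (adjusted p = 0.00221), with an adjusted p of 0.0512 without K19-Nog array 1.

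Across the genome, 5034 of 18193 genes (27.7%) passed the test, 2544 of them (14%) higher and 2490 (13.7%) lower in K19-Nog/C2mE stomachs, while the median difference over all genes was 0.02. Of the genes called, 2521 of the higher (13.9% of all genes) and 2468 of the lower (13.6%) had arrays that did not overlap, so that a lack of overlap is common and is given with single genes as a description of their values. Calls were more one-sided among large changes: 133 genes rose and 258 fell by at least 4-fold, and 15 rose and 51 fell by at least 16-fold. The largest rises included Cftr, Chil4, Cldn2, Muc4, Atp6v0d2, Pigr and Onecut2, and the largest falls Chia1, Cblif, Pdia2, Pgc, Cckar and Tmed6. Chil4 rose by 5.41 ± 1.46 (adjusted p = 0.00826), and its adjusted p was 0.0798 without K19-Nog array 1 and 0.0771 without the 9 arrays with Y-linked signal. Without K19-Nog array 1 the count of changed genes was 3126. Counted by probe set, 4651 of 45037 (10.3%) were higher and 4763 (10.6%) lower. Tissue was taken whole, so fewer cells of a type and less RNA per cell cannot be told apart in anything that follows. The plot of gene lists sets 43 groups of genes side by side, and their members are described by the cells or pathways they mark. Their counts stand beside the 14% of all genes that rose and the 13.7% that fell. A count near these shares does not set a list apart. List counts of 0 to 2 members often moved by 1 or 2 when 1 of the compared arrays was left out, and larger moves are given with each list.

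**Figure D1:**
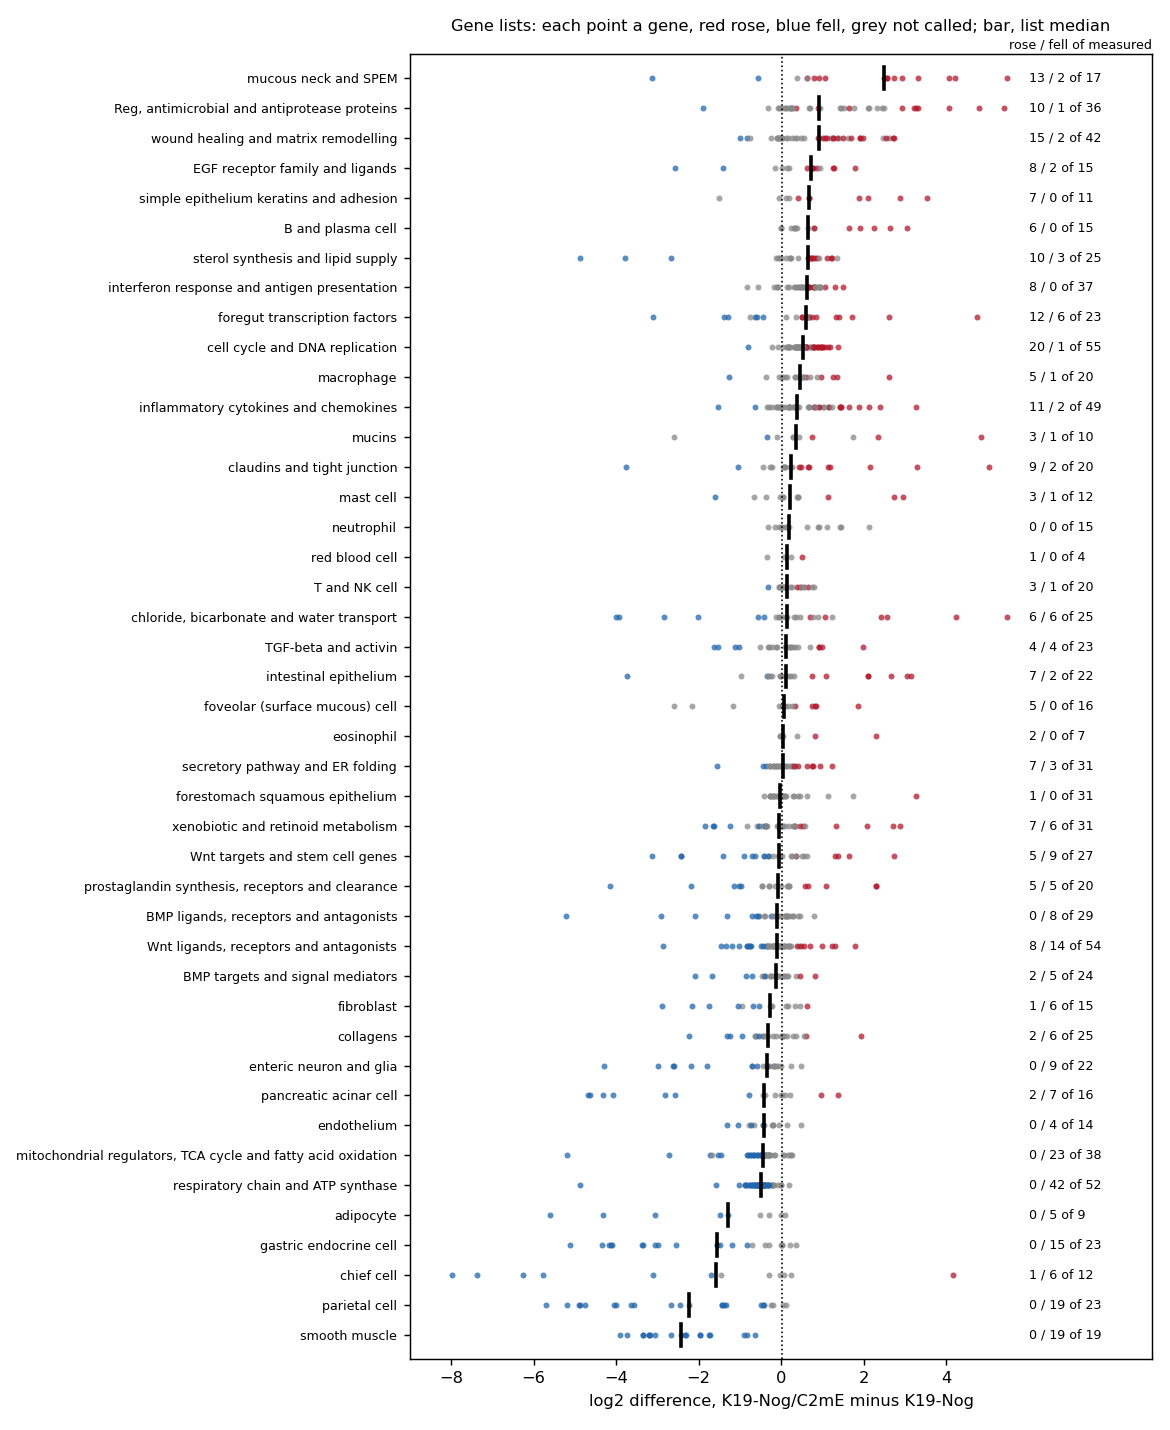
Log2 difference, K19-Nog/C2mE minus K19-Nog, of every measured member of each gene list. Each point is a gene (red, rose; blue, fell; grey, did not pass the test), black bars are list medians, the dotted line is the median of all genes and the counts of rises and falls stand at the right. Mucous neck and SPEM genes lie at the top with a median of 2.50, and smooth muscle genes (-2.42) and parietal cell genes (-2.23) at the bottom.

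Genes of acid secretion fell. Of 23 parietal cell genes 19 fell and 0 rose, with a median of -2.23 (all genes, 0.02). Atp4a, the catalytic subunit of the gastric proton pump, read 10.74, 11.72 and 6.26 in K19-Nog/C2mE against 14.45 and 14.46 in K19-Nog stomachs, and Atp4b, its beta subunit, 10.83, 11.99 and 7.08 against 14.72 and 14.73. All K19-Nog/C2mE arrays were lower than both K19-Nog arrays, and array 3 was by far the lowest. The differences were -4.89 ± 1.23 (adjusted p = 0.00521) for Atp4a and -4.76 ± 1.21 (adjusted p = 0.00552) for Atp4b. Both p-values exceeded the threshold when the 9 arrays with Y-linked signal were left out of the model (0.0545 and 0.0569) or when only the compared groups were modelled (0.0696 and 0.0524).

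The channels and transporters around the pump also fell, with a smaller SE. Kcne2, the potassium channel subunit that returns potassium to the pump, read 5.96, 7.07 and 3.78 against 11.23 and 11.40 (-5.71 ± 0.93, adjusted p = 0.000105). Slc26a7, a chloride transporter of the parietal cell, read 4.28, 5.50 and 3.26 against 8.99 and 9.48 (-4.89 ± 0.66, adjusted p = 1.48e-05). These values left no overlap, with K19-Nog/C2mE array 2 the highest of its group in both genes. Array 3 (3.78 and 3.26) lay below its 25th percentile (4.45) in both, near the floor, which limits how far the spread could show. Clic6, a chloride channel gene, fell by 3.64 ± 0.30, the water channel Aqp4 fell by 4.01 ± 0.42 and the anion exchanger Slc4a2 fell by 2.23 ± 0.21. The receptors through which histamine and gastrin stimulate acid, Hrh2 and Cckbr, fell by 1.43 ± 0.21 and 1.39 ± 0.29 (adjusted p = 2.83e-05 and 0.00103). Summed over the list, the linear signal ran from 28004.2 to 46309.5 in K19-Nog/C2mE and from 114800 to 115433 in K19-Nog stomachs.

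Chief cell genes held the steepest falls. Pgc, which encodes pepsinogen C, read 9.08, 9.99 and 6.56 in K19-Nog/C2mE against 14.82 and 14.80 in K19-Nog stomachs (-6.26 ± 0.96, adjusted p = 5.55e-05). Cblif, gastric intrinsic factor, made by chief cells in mice, read 7.22, 8.95 and 4.71 against 14.34 and 14.34 (-7.38 ± 1.37, adjusted p = 0.00039). Chia1, an acidic chitinase, read 8.46, 7.12 and 4.97 against 14.85 and 14.81 (-7.98 ± 1.39, adjusted p = 0.000204). The K19-Nog arrays almost coincided in these 3 genes, while the K19-Nog/C2mE arrays spread over more than 3 units with array 3 lowest. Bhlha15 (Mist1), the transcription factor of mature chief cells, fell by 3.11 ± 0.34 (7.13, 7.52 and 6.61 against 10.29 and 10.09, adjusted p = 1.02e-06).

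Of 12 chief cell genes 6 fell and 1 rose. The riser was Cym, prochymosin, a milk-clotting protease gene. It read 13.37, 8.75 and 9.63 against 6.11 and 6.75 (4.16 ± 1.07, adjusted p = 0.00617). Array 1 was the highest there and the groups did not overlap, but the adjusted p was 0.0663 without K19-Nog array 1. Pga5, a further pepsinogen, did not pass, with overlapping groups (10.24, 11.03 and 7.54 against 11.43 and 10.70, adjusted p = 0.141), although it did without K19-Nog/C2mE array 2 (adjusted p = 0.0229). Of 16 genes listed for pancreatic acinar cells 7 fell and 2 rose, the falls including the lipases Pnliprp1 (-4.63 ± 0.61) and Pnliprp2 (-4.68 ± 0.83) and the transcription factor Ptf1a (-2.57 ± 0.25). The summed signal of that list was 4619.2 to 15070.6 in K19-Nog/C2mE and 43498.5 to 44836.3 in K19-Nog stomachs, and 45243.4 to 47139.2 in wild-type stomachs.

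Endocrine cell genes fell with no member rising, 15 of 23 with a median of -1.55. Sst, the inhibitory hormone somatostatin, read 7.54, 8.21 and 6.21 in K19-Nog/C2mE against 12.39 and 12.51 in K19-Nog stomachs (-5.13 ± 0.74, adjusted p = 2.97e-05). Hdc, which makes histamine in enterochromaffin-like cells, read 6.12, 6.96 and 6.59 against 9.16 and 9.04 (-2.55 ± 0.37, adjusted p = 2.93e-05). Granule proteins fell alongside: Scg2 by 4.12 ± 0.27 (4.03, 3.91 and 3.92 against 8.36 and 7.78, adjusted p = 4.39e-09) and Chga by 4.33 ± 0.82 (adjusted p = 0.000478). None of these genes overlapped between the genotypes. Scg2 was the tightest among the K19-Nog/C2mE arrays, but there it lay below their 25th percentile (4.45 to 4.50), near the floor. Ghrl, the hunger hormone ghrelin, fell by 4.17 ± 1.14 (10.86, 11.46 and 6.73 against 13.90 and 13.81, adjusted p = 0.00913), and passed neither without K19-Nog array 1 (adjusted p = 0.0641) nor without K19-Nog array 2 (0.0547) nor without the 9 arrays (0.0838).

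Oxidative metabolism genes decreased almost as a block, but by little each. Of 52 genes of the respiratory chain and ATP synthase 42 fell and 0 rose, with a median of -0.50, and of 38 genes for mitochondrial regulators, the citric acid cycle and fatty acid oxidation 23 fell and 0 rose, with a median of -0.45. Ndufs3, a subunit of complex I, read 11.03, 11.10 and 11.09 in K19-Nog/C2mE against 11.93 and 11.96 in K19-Nog stomachs (-0.87 ± 0.07, adjusted p = 4.38e-08). Uqcrfs1, the iron-sulfur protein of complex III, fell by 0.76 ± 0.08 and Atp5h of the ATP synthase by 0.76 ± 0.09 (adjusted p = 9.71e-07 and 3.12e-06). The replicates of Ndufs3 lay close together and the genotypes were apart in all 3 subunits.

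Some regulators of these genes fell further. Esrrg, an estrogen-related nuclear receptor that drives mitochondrial genes and is abundant in parietal cells, read 6.69, 7.35 and 4.22 in K19-Nog/C2mE against 11.36 and 11.19 in K19-Nog stomachs (-5.19 ± 0.88, adjusted p = 0.000155). Ppargc1a, the coactivator PGC-1 alpha, read 5.86, 6.64 and 6.32 against 9.03 and 8.94 (-2.71 ± 0.28, adjusted p = 5.26e-07). Neither gene overlapped between genotypes, and only Esrrg was much lower in array 3 than in its group. Idh2 and Acadm, enzymes of the citric acid cycle and of fatty acid oxidation, fell by 1.72 ± 0.17 and 1.45 ± 0.11. Cox7a1, a subunit of complex IV, stood out within the respiratory list (5.54, 6.35 and 4.15 against 10.16 and 10.29, -4.88 ± 0.69, adjusted p = 2.25e-05). These falls stood beside the parietal cell falls above, parietal cells being rich in mitochondria, and the part of one in the other was not tested.

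Mucous neck and SPEM genes went the other way, 13 of 17 rising and 2 falling, with a median of 2.50. Wfdc2, an antiprotease marker of SPEM, read 12.23, 12.09 and 12.71 in K19-Nog/C2mE against 7.20 and 9.36 in K19-Nog stomachs (4.06 ± 0.41, adjusted p = 5.17e-07). Cd44, a hyaluronan receptor, read 9.73, 11.25 and 11.60 against 7.88 and 8.39 (2.73 ± 0.36, adjusted p = 1.18e-05). Gkn3, a gastrokine of mucous neck cells, read 12.97, 14.52 and 14.17 against 11.32 and 11.45 (2.50 ± 0.47, adjusted p = 0.000446). Every K19-Nog/C2mE array was above both K19-Nog arrays in these genes, array 1 being the lowest of its group for Cd44 and Gkn3. Rises were smaller for bright genes such as Tff2, spasmolytic polypeptide, by 0.63 ± 0.11 (14.44, 14.87 and 14.65 against 14.04 and 14.00) and Clu, clusterin, by 1.07 ± 0.11 (adjusted p = 0.000162 and 4.70e-07). Olfm4, an olfactomedin of crypt cells, fell by 3.12 ± 0.67 (adjusted p = 0.00139). Car9, a carbonic anhydrase, fell by 0.56 ± 0.18, but its adjusted p of 0.0292 was 0.156, 0.0973 and 0.116 without K19-Nog array 1, K19-Nog array 2 and K19-Nog/C2mE array 1.

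Genes of fluid and mucus secretion followed both ways. Cftr, the chloride channel, was at 8.91, 10.83 and 11.41 in K19-Nog/C2mE against 3.67 and 6.15 in K19-Nog stomachs, with array 1 of each genotype the lowest and no overlap (5.47 ± 0.58, adjusted p = 8.26e-07). Clca1, a secreted regulator of chloride channels, read 12.44, 13.37 and 11.70 against 8.20 and 8.32 (4.24 ± 0.87, adjusted p = 0.000992), and the water channel Aqp5 rose by 2.58 ± 0.55 (adjusted p = 0.00143). Slc26a6, an anion exchanger, fell by 2.02 ± 0.18, and the carbonic anhydrases Car3 and Car4 differed by -3.93 ± 0.55 and -2.84 ± 0.34. In all, 6 of 25 chloride, bicarbonate and water transport genes rose and 6 fell. Among 10 mucins, Muc4 rose by 4.85 ± 0.63 (10.42, 10.47 and 11.43 against 5.26 and 6.57, adjusted p = 8.96e-06) and Muc1, a membrane mucin, by 0.76 ± 0.12 (adjusted p = 0.000118). Muc5b, a gel-forming mucin, rose by 2.35 ± 0.78 (adjusted p = 0.0292), and its adjusted p was 0.228, 0.0564, 0.153 and 0.169 without K19-Nog array 1, K19-Nog array 2, K19-Nog/C2mE array 3 and the 9 arrays.

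**Figure D2:**
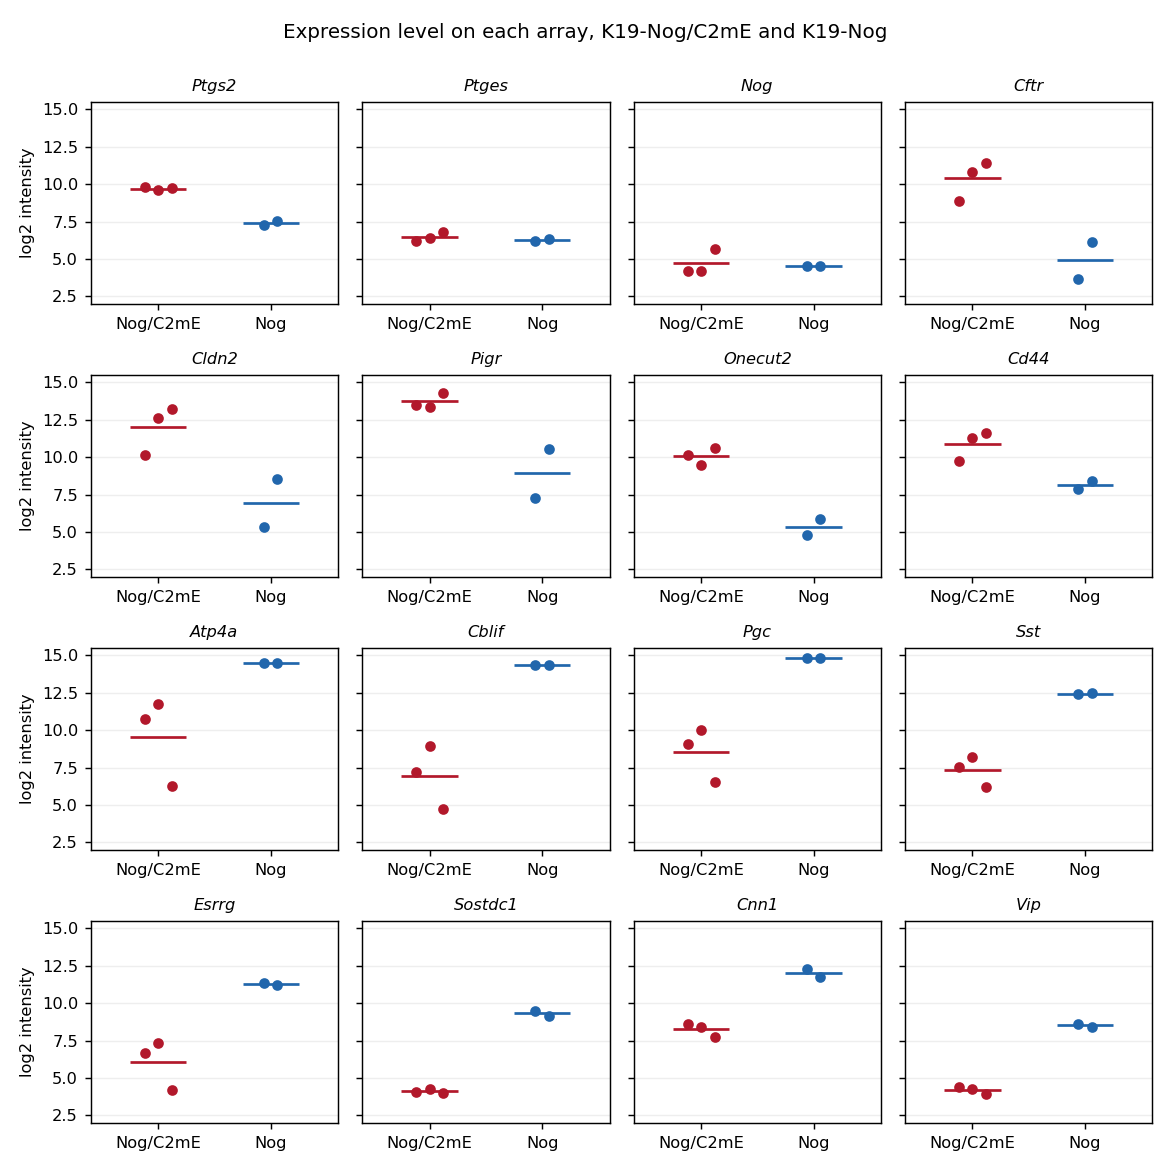
Log2 signal of 16 genes on the 3 K19-Nog/C2mE arrays (left in each panel) and the 2 K19-Nog arrays (right). Points are single mice in the order of their label numbers and bars are group means. Cftr lies between 8.91 and 11.41 in K19-Nog/C2mE and at 3.67 and 6.15 in K19-Nog stomachs, and the 2 K19-Nog points of Pgc and Cblif almost coincide while the K19-Nog/C2mE points spread below them.

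Tight junction genes changed in composition. Of 20 measured members 9 rose and 2 fell. Cldn2, a pore-forming claudin, read 10.13, 12.61 and 13.25 in K19-Nog/C2mE against 5.34 and 8.56 in K19-Nog stomachs (5.05 ± 0.98, adjusted p = 0.000594). Cldn7 read 9.59, 9.09 and 11.90 against 6.45 and 7.35 (3.29 ± 0.52, adjusted p = 7.26e-05), while Cldn8 fell, 4.41, 5.10 and 3.66 against 7.85 and 8.46 (-3.76 ± 0.34, adjusted p = 1.44e-07). The genotypes did not overlap for these claudins, although the K19-Nog arrays were far from each other for Cldn2.

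Surface mucous cell genes changed little, with 5 of 16 rising, 0 falling and a median of 0.08. Galnt6 and Gcnt3, enzymes of mucin glycosylation, rose by 1.86 ± 0.23 and 0.85 ± 0.11 (adjusted p = 6.05e-06 and 6.65e-06). Muc5ac, the main mucin of surface cells, read 12.47, 12.47 and 9.17 against 14.07 and 13.85 and did not pass (adjusted p = 0.0846, and 0.0236 without K19-Wnt1/C2mE array 3). Array 3 was far below the others, and all 3 K19-Nog/C2mE arrays were below both K19-Nog arrays.

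Genes of simple columnar epithelium increased, while those of intestinal-type epithelium moved both ways. Of 22 intestinal epithelium genes 7 rose, 2 fell and 13 did not pass. Their median was 0.11, with differences from -3.73 to 3.14. The rises included Gpa33, a cell surface antigen of intestinal epithelium (8.97, 8.90 and 9.43 in K19-Nog/C2mE against 6.12 and 5.81 in K19-Nog stomachs, 3.14 ± 0.23, adjusted p = 1.58e-08), and Vil1, the microvillus protein villin (10.49, 10.15 and 10.97 against 7.17 and 7.80, 3.06 ± 0.27, adjusted p = 9.91e-08). Both sets of values were tight and apart. Of 11 keratin and adhesion genes of simple epithelium 7 rose and 0 fell. Krt7 rose by 3.54 ± 0.42 (11.48, 11.48 and 12.01 against 7.51 and 8.72, adjusted p = 2.98e-06) and Epcam, an epithelial adhesion molecule, by 1.90 ± 0.13 (12.09, 12.56 and 12.64 against 10.40 and 10.66, adjusted p = 9.04e-09). Krt19, whose promoter drives the transgenes, rose by 0.67 ± 0.12 (adjusted p = 0.000201).

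Of 23 transcription factors of the foregut 12 rose and 6 fell. Onecut2, of the hepatocyte nuclear factor 6 family, read 10.17, 9.47 and 10.64 in K19-Nog/C2mE against 4.83 and 5.88 in K19-Nog stomachs (4.74 ± 0.48, adjusted p = 5.48e-07). Pdx1, which specifies pancreas and antral stomach, read 7.46, 7.32 and 8.43 against 4.57 and 5.65 (2.63 ± 0.48, adjusted p = 0.000363). Sox2, a gastric identity factor, rose by 1.33 ± 0.18, and Klf5, a growth-associated epithelial factor, by 1.40 ± 0.23 (adjusted p = 1.68e-05 and 9.32e-05). None of the values overlapped. Barx1, a factor of stomach mesenchyme, fell by 1.28 ± 0.23 (7.74, 7.64 and 7.78 against 9.21 and 8.79, adjusted p = 0.000278). The 6 falls became 3 without K19-Nog array 1 and 3 without K19-Nog/C2mE array 3.

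Antimicrobial, antiprotease and Reg family genes were raised in part, 10 of 36 rising and 1 falling, with a median of 0.92. Pigr, which carries IgA across epithelium, read 13.51, 13.36 and 14.29 in K19-Nog/C2mE against 7.27 and 10.57 in K19-Nog stomachs (4.80 ± 0.61, adjusted p = 7.42e-06). Dmbt1, a mucosal scavenger protein, read 13.95, 13.59 and 14.83 against 9.55 and 12.07 (3.32 ± 0.54, adjusted p = 0.000117), and Bpifb1, a secreted lipid-binding defence protein, rose by 3.22 ± 0.42 (adjusted p = 9.55e-06). K19-Nog array 2 was higher than array 1 in Pigr and Dmbt1, but all K19-Nog/C2mE arrays exceeded both.

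Other defence genes were high in 1 stomach. Ltf, lactoferrin, read 8.28, 7.33 and 13.59 against 6.33 and 8.90, and Lcn2, a siderophore-binding lipocalin, 5.51, 4.25 and 10.72 against 4.59 and 6.00. Groups overlapped in both genes, array 3 of K19-Nog/C2mE being the only high one, and neither passed (adjusted p = 0.183 and 0.451), Ltf passing only without K19-Nog/C2mE array 2 (adjusted p = 0.0249). Reg1 overlapped too (10.56, 9.03 and 14.24 against 5.86 and 10.14, 3.27 ± 1.14, adjusted p = 0.0374) and was lost without K19-Nog array 1 (0.621), K19-Nog/C2mE array 3 (0.195) or the 9 arrays (0.153). The 10 rises became 4 without K19-Nog array 1, 17 without K19-Nog/C2mE array 2 and 6 without the 9 arrays with Y-linked signal.

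Growth factor genes of the EGF receptor (ErbB) system rose, 8 of 15 with 2 falls and a median of 0.73. Among ligands, Nrg1, which binds the ErbB3 receptor, read 6.27, 5.98 and 7.19 in K19-Nog/C2mE against 5.26 and 5.17 in K19-Nog stomachs (1.27 ± 0.26, adjusted p = 0.00108), and Tgfa, a ligand made by gastric epithelium, 9.23, 9.07 and 8.85 against 8.24 and 8.31 (0.78 ± 0.11, adjusted p = 2.98e-05). Among receptors, Erbb3 read 10.90, 10.79 and 11.14 against 10.10 and 10.07 (0.86 ± 0.14, adjusted p = 9.52e-05) and Erbb2 rose by 0.62 ± 0.12 (adjusted p = 0.000788). The values of these 4 genes did not overlap. Egf itself fell, 4.60, 4.61 and 4.62 against 7.23 and 7.14 (-2.57 ± 0.34, adjusted p = 1.16e-05), and so did Lrig1, a negative regulator of ErbB receptors (-1.40 ± 0.17, adjusted p = 4.44e-06). Ereg, epiregulin, rose by 1.79 ± 0.60 (adjusted p = 0.032), with array 3 the highest, and was lost without K19-Nog array 1 (0.194), K19-Nog array 2 (0.0833), K19-Nog/C2mE array 3 (0.165) or the 9 arrays (0.13). The 8 rises became 4 without K19-Nog array 1.

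BMP ligand, receptor and antagonist genes fell where they changed, 8 of 29 with 0 rises and a median of -0.10. The summed signal of the list was 7831.5 to 8996.5 in K19-Nog/C2mE, 9748.1 to 10156.4 in K19-Nog and 8474.3 to 8961.8 in wild-type stomachs. In K19-Nog against wild-type stomachs 2 of the 29 were higher and 0 lower in the model of all arrays. Sostdc1, a secreted antagonist of BMP and Wnt signals, had the smallest p-value of the listed genes (4.07, 4.29 and 3.99 in K19-Nog/C2mE against 9.49 and 9.17 in K19-Nog stomachs, -5.22 ± 0.25, adjusted p = 1.62e-10). Bmpr1b, a type 1 BMP receptor, read 5.41, 5.52 and 5.26 against 8.07 and 8.55 (-2.91 ± 0.29, adjusted p = 4.11e-07), and Chrdl1, a chordin-like BMP antagonist, 4.93, 4.72 and 4.58 against 6.66 and 7.01 (-2.09 ± 0.19, adjusted p = 1.51e-07). All 3 genes were tightly grouped and apart, but Sostdc1 in K19-Nog/C2mE stomachs lay below the 25th percentile of those arrays (4.45 to 4.50), near the floor. Bmp2, a ligand, was lower in array 3 (9.16) than in both K19-Nog arrays (9.45 and 9.41) and higher in arrays 1 and 2, and did not pass (adjusted p = 0.281) but did without K19-Nog/C2mE array 3 (adjusted p = 0.00366). The 8 falls became 5 without K19-Nog array 1.

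Genes that BMP signals induce moved little as a group. Of 24 measured targets and mediators 2 rose and 5 fell, with a median of -0.12. Id1, the inhibitor of differentiation gene most used as a BMP readout, read 11.02, 11.26 and 11.39 against 10.73 and 11.02 and did not pass (adjusted p = 0.161), while its difference between K19-Nog and wild-type stomachs was -0.83 (adjusted p = 0.0121, but 0.218 without K19-Nog array 1, 0.0573 without wild-type array 1 and 0.446 without the 9 arrays). Id2 fell by 0.85 ± 0.20 (9.47, 10.14 and 10.21 against 10.74 and 10.84) and Id4 by 2.08 ± 0.35 (6.83, 7.96 and 6.33 against 9.30 and 8.93), both without overlap (adjusted p = 0.00269 and 0.000172). Smurf1, a ubiquitin ligase that turns over BMP Smads, rose by 0.82 ± 0.12 (8.11, 8.07 and 8.20 against 7.33 and 7.28, adjusted p = 3.52e-05). The 5 falls became 3 without either K19-Nog array.

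Of 23 TGF-beta and activin genes 4 rose and 4 fell, near the shares of all genes (14% and 13.7%). Inhbb, an activin subunit, rose by 1.99 ± 0.24 (8.60, 8.83 and 8.94 in K19-Nog/C2mE against 6.57 and 7.03 in K19-Nog stomachs, adjusted p = 3.68e-06). Tgfb3 fell by 1.62 ± 0.13 (5.82, 5.59 and 6.04 against 7.53 and 7.34, adjusted p = 4.62e-08), and Tgfbr3, a co-receptor, by 1.53 ± 0.25 (adjusted p = 9.57e-05). The genotypes were apart in each. Smad3 and Tgfbr2 did not pass (0.21 ± 0.10 and 0.30 ± 0.14, adjusted p = 0.163 and 0.129), Tgfbr2 passing without K19-Nog/C2mE array 2 (adjusted p = 0.00273). The 4 rises became 2 without either K19-Nog array or without K19-Nog/C2mE array 3.

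Wnt target and stem cell genes moved in both directions, 5 of 27 up and 9 down. Ccnd1, cyclin D1, read 10.94, 10.47 and 10.66 in K19-Nog/C2mE against 9.29 and 9.31 in K19-Nog stomachs (1.39 ± 0.15, adjusted p = 1.27e-06), and Prom1, a membrane glycoprotein used as a progenitor marker, rose by 1.32 ± 0.18 (adjusted p = 1.34e-05). In contrast Lgr5, the R-spondin receptor that marks stem cells of the antral gland base, read 5.35, 5.31 and 5.15 against 7.86 and 7.53 (-2.42 ± 0.23, adjusted p = 2.06e-07), and Tnfrsf19, a target of the Wnt pathway, fell by 2.43 ± 0.25 (adjusted p = 6.39e-07). Axin2, the direct Wnt feedback gene, fell by 0.62 ± 0.18 (6.30, 6.41 and 6.13 against 6.84 and 6.96, adjusted p = 0.0123, and 0.0501, 0.0992 and 0.0646 without K19-Nog array 1, K19-Nog array 2 and the 9 arrays with Y-linked signal). None of the genes named overlapped between the genotypes. The 9 falls became 5 without either K19-Nog array.

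Of 54 Wnt ligands, receptors and antagonists 8 rose and 14 fell, beside 14% and 13.7% of all genes. In K19-Nog against wild-type stomachs 6 of the 54 were higher and 0 lower in the model of all arrays. Wnt4, a ligand, read 9.21, 8.69 and 8.78 against 7.20 and 7.01 (1.79 ± 0.31, adjusted p = 0.000199) and Wnt11 rose by 1.23 ± 0.19 (adjusted p = 5.37e-05). Rspo3, a secreted amplifier of Wnt signals made by stroma, fell to 4.53, 4.17 and 4.07 against 7.06 and 7.18 (-2.86 ± 0.25, adjusted p = 1.00e-07). Rspo3 was also 1.83 higher in K19-Nog than in wild-type stomachs (adjusted p = 0.000162, and 0.102 without the 9 arrays with Y-linked signal). Ctnnb1, beta-catenin, rose by 0.39 ± 0.09 (adjusted p = 0.00226). Tcf3, the gene also named Tcfe2a, rose by 0.69 ± 0.20 (adjusted p = 0.0138) and did not pass without K19-Nog array 1. Porcn, the acyltransferase of Wnt proteins, did not pass (-0.10 ± 0.17, adjusted p = 0.734). The 14 falls became 9 without K19-Nog array 1.

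**Figure D3:**
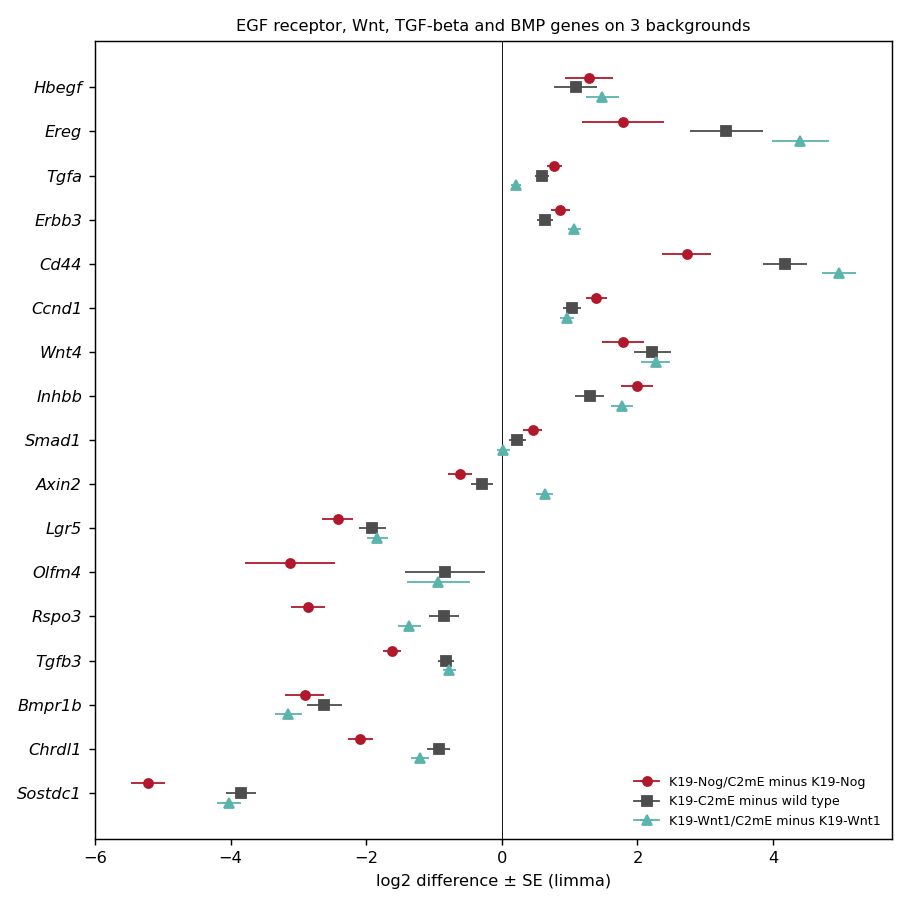
Log2 difference made by C2mE (± SE) in 17 genes of the EGF receptor, Wnt, BMP and TGF-beta pathways on 3 backgrounds: K19-Nog/C2mE minus K19-Nog, K19-C2mE minus wild-type and K19-Wnt1/C2mE minus K19-Wnt1. Sostdc1 lies furthest below 0 on every background shown (-5.22 on the K19-Nog background), and Axin2 is below 0 on the K19-Nog background (-0.62) and above it on the K19-Wnt1 background (0.63).

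Cell cycle and DNA replication genes rose, 20 of 55 with 1 fall and a median of 0.53. The genes of the minichromosome maintenance (MCM) helicase, which licenses and opens replication origins, moved together. Mcm4 read 9.15, 8.48 and 8.81 in K19-Nog/C2mE against 7.61 and 7.67 in K19-Nog stomachs (1.18 ± 0.21, adjusted p = 0.000334), Mcm3 read 8.92, 8.21 and 8.75 against 7.63 and 7.59 (1.02 ± 0.21, adjusted p = 0.000971), and Mcm6 10.33, 9.58 and 10.08 against 9.03 and 9.03 (0.97 ± 0.20, adjusted p = 0.000901). Cdc6, which loads the helicase, read 8.15, 7.43 and 7.78 against 6.59 and 6.87 (1.06 ± 0.21, adjusted p = 0.000604). Array 2 was the lowest K19-Nog/C2mE array in these 4 genes and still above K19-Nog. Gmnn, geminin, an inhibitor of licensing, was the member that fell (-0.81 ± 0.18, adjusted p = 0.00239). The 20 rises became 10 without K19-Nog array 1 and 13 without K19-Nog array 2.

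Because replication genes are classical targets of E2F factors, their promoters were searched for 4 forms of the E2F motif, TTTCCCGC, TTTCGCGC, TTTGCCGC and TTTGGCGC, on both strands, overlapping matches counted. Promoters are windows of 300 bases, 250 before to 50 after the annotated start (RefSeq, build GRCm38.p6). At least 1 match was found for 10 of the 42 list genes with a promoter in the RefSeq table, against 2.26% of all 32851 promoters. The 42 genes had 46 promoters, and a gene counted if any of its promoters matched, so the shares differ in unit. Of the 10 genes with a match 7 rose (Mcm5, Cdc6, Mcm3, Mcm6, Cdt1, Mcm7 and Lig1) and 3 did not pass, and of 32 without a match 9 rose. Mcm5 had an adjusted p of 0.0702 without K19-Nog array 1. Shown are 3 that rose, on the strand of the gene with motif bases in capitals: Mcm3 (chr1:20820263-20820562, minus strand, 2 matches), Mcm6 (chr1:128359656-128359955, minus strand, 3 matches, 2 of them overlapping) and Cdc6 (chr11:98907901-98908200, plus strand, 1 match). A match is a description of the letters and not a site or a cause.
Mcm3: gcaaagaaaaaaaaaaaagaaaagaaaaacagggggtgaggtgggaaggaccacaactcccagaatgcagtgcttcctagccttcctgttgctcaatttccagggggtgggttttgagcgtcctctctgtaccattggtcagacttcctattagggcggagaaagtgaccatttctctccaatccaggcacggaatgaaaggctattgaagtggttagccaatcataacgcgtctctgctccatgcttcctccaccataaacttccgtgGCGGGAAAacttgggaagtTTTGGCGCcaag
Mcm6: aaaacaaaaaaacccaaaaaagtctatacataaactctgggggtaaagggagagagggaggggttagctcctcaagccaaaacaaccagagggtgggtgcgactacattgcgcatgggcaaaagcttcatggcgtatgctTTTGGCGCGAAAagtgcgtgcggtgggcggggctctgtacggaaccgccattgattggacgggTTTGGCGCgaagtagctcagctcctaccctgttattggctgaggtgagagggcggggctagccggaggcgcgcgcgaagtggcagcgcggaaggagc
Cdc6: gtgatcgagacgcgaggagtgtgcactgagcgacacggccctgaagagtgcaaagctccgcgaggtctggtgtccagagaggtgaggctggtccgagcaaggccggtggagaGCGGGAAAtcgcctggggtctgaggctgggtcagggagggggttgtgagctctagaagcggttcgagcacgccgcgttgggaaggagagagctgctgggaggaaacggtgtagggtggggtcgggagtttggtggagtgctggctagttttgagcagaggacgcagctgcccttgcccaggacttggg

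Wound healing and matrix remodelling genes rose, 15 of 42 with 2 falls and a median of 0.91. Plaur, the urokinase receptor, read 10.13, 9.50 and 11.11 in K19-Nog/C2mE against 7.29 and 7.80 in K19-Nog stomachs (2.70 ± 0.54, adjusted p = 0.000852). Anxa1, an anti-inflammatory annexin, read 11.88, 11.66 and 12.66 against 9.82 and 10.37 (1.97 ± 0.27, adjusted p = 1.64e-05), and Lama3, a laminin chain of epithelial basement membrane, 9.32, 8.83 and 9.11 against 6.96 and 7.38 (1.92 ± 0.33, adjusted p = 0.000188). The values were apart, and array 3 was the highest for Plaur and Anxa1. Timp2, an inhibitor of matrix metalloproteinases, fell by 1.01 ± 0.19 (adjusted p = 0.00051). Among 25 collagens 2 rose and 6 fell, Col18a1, a basement membrane collagen, rising by 1.94 ± 0.24 and Col14a1, a fibril-associated collagen, falling by 2.23 ± 0.22 (adjusted p = 5.84e-06 and 4.42e-07).

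Cytokine genes rose in part, 11 of 49 with 2 falls and a median of 0.38 (all genes, 14% up and 13.7% down). Il1rn, the interleukin 1 receptor antagonist, read 8.34, 8.28 and 9.73 in K19-Nog/C2mE against 6.09 and 6.69 in K19-Nog stomachs (2.39 ± 0.37, adjusted p = 5.69e-05). Cx3cl1, fractalkine, read 8.77, 8.58 and 8.89 against 7.22 and 7.42 (1.42 ± 0.18, adjusted p = 8.00e-06), and Ccl20, which attracts cells bearing CCR6, 8.65, 6.74 and 8.57 against 5.87 and 5.86 (2.12 ± 0.42, adjusted p = 0.000707). Groups were apart, with K19-Nog/C2mE array 2 low for Ccl20. Cxcl12, a stromal chemokine, fell by 1.52 ± 0.23 (8.37, 8.42 and 8.58 against 9.96 and 10.01, adjusted p = 4.78e-05). Il6 and the neutrophil attractant Cxcl3 were high only on array 3 (6.13 and 7.57, with arrays 1 and 2 between 3.01 and 3.57) and did not pass (adjusted p = 0.586 and 0.441). The 11 rises became 7 without K19-Nog array 1.

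Genes of the immune cell lists were raised in part. Pou2af1, a B cell coactivator, read 6.66, 6.00 and 8.19 against 3.84 and 3.95 (3.05 ± 0.56, adjusted p = 0.000329). Igha, the immunoglobulin alpha chain, read 14.21, 13.24 and 14.42 against 12.35 and 11.08 (2.24 ± 0.60, adjusted p = 0.00807, and 0.152 without K19-Nog array 2). Among 15 B and plasma cell genes 6 rose and 0 fell, which became 2 without K19-Nog array 2 and 3 without K19-Nog/C2mE array 3. Mast cell genes were mixed, 3 of 12 rising and 1 falling, with a median of 0.22 (all genes, 14% up and 13.7% down). The mast cell protease Mcpt2 read 10.40, 10.31 and 11.16 against 8.11 and 7.67 (2.73 ± 0.37, adjusted p = 1.62e-05), while Kit, the stem cell factor receptor of mast cells and of pacemaker cells of the gut wall, read 6.46, 7.43 and 7.28 against 8.76 and 8.58 (-1.61 ± 0.30, adjusted p = 0.000386). Of 7 eosinophil genes 2 rose and 0 fell, among them Siglecf, a receptor of eosinophils, which read 6.07, 6.08 and 5.15 against 3.33 and 3.60 (2.30 ± 0.36, adjusted p = 7.87e-05). These genes did not overlap between the genotypes.

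Macrophage, neutrophil and T cell genes depended on single stomachs. Of 20 macrophage genes 5 rose and 1 fell, with a median of 0.46. Cd14, the endotoxin co-receptor, read 9.86, 8.93 and 11.53 against 6.94 and 8.03 (2.62 ± 0.49, adjusted p = 0.000437). The 5 rises became 1 without K19-Nog array 1, 2 without K19-Nog/C2mE array 3 and 1 without the 9 arrays with Y-linked signal. Of 15 neutrophil genes 0 passed limma's test, 1 had an unadjusted p under 0.05, and 2 rose without K19-Nog/C2mE array 2. The summed linear signal of that list was 734.3, 941.2 and 14658.3 on K19-Nog/C2mE arrays 1, 2 and 3, and 653.4 to 1086.7 in K19-Nog stomachs, so that only 1 stomach was high. Among 20 T and NK cell genes 3 rose and 1 fell, and 8 rose without K19-Nog/C2mE array 2, while 0 or 1 did so without any other of the compared arrays but K19-Nog/C2mE array 1.

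Interferon response and antigen presentation genes rose in 8 of 37 cases with 0 falls and a median of 0.62. H2-D1, a class I histocompatibility gene, rose by 0.67 ± 0.14 (13.09, 13.12 and 13.63 in K19-Nog/C2mE against 12.56 and 12.66 in K19-Nog stomachs, adjusted p = 0.000987), and H2-K1, another, by 0.77 ± 0.19 (adjusted p = 0.00438). Oasl1, of the oligoadenylate synthetase family, read 11.44, 11.16 and 11.13 against 10.16 and 10.18 (1.07 ± 0.20, adjusted p = 0.000494). The values did not overlap. The list's summed signal was 39176, 40391.6 and 91580.9 on K19-Nog/C2mE arrays 1, 2 and 3 and 30294.4 and 35891.4 on the K19-Nog arrays, array 3 again the highest. The 8 rises became 5 without K19-Nog array 1 and 14 without K19-Nog/C2mE array 2.

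All 19 measured smooth muscle genes fell, with a median of -2.42, beside 13.7% of all genes. Cnn1, calponin, read 8.62, 8.42 and 7.77 in K19-Nog/C2mE against 12.29 and 11.73 in K19-Nog stomachs (-3.73 ± 0.38, adjusted p = 5.98e-07). Pln, phospholamban, which regulates calcium uptake, read 5.88, 5.83 and 5.67 against 9.76 and 9.64 (-3.90 ± 0.27, adjusted p = 7.68e-09), and Acta2, smooth muscle actin, 12.28, 12.23 and 11.95 against 14.22 and 14.00 (-1.96 ± 0.20, adjusted p = 5.03e-07). No array of one genotype reached those of the other. The summed signal of the list lay between 10573.6 and 13768.2 in K19-Nog/C2mE and at 61315.3 to 78805.7 in K19-Nog stomachs.

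K19-Nog stomachs were the ones that stood apart from the rest of the series in these genes. The same sum was 12426.3 to 16605.1 in K19-C2mE and 15059.9 to 23063.6 in wild-type stomachs, and 8842.1 to 15600 in K19-Wnt1/C2mE and 16905.5 to 28494.7 in K19-Wnt1 stomachs. In K19-Nog against wild-type stomachs 16 of the 19 genes were higher, with a median of 1.86, Cnn1 by 2.68 (adjusted p = 0.000265, and 0.111 without the 9 arrays with Y-linked signal). Without the 9 arrays 4 of the 19 were called higher, with a median of 1.62. C2mE lowered the list by a median of only 0.52 on the wild-type background and 0.76 on the K19-Wnt1 background. How much muscle wall each sample held is not given in the sources used here, and its part in these values was not tested.

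Summed over their list, enteric neuron and glia genes were also highest in K19-Nog stomachs. Of 22 neuron and glia genes 9 fell and 0 rose. Vip, vasoactive intestinal peptide, read 4.43, 4.28 and 3.96 in K19-Nog/C2mE against 8.62 and 8.40 in K19-Nog stomachs (-4.29 ± 0.36, adjusted p = 5.07e-08). Cartpt, a neuropeptide gene, read 4.53, 4.46 and 4.27 against 7.60 and 7.23 (adjusted p = 5.94e-09), and Uchl1, a pan-neuronal ubiquitin hydrolase, 4.34, 4.60 and 4.70 against 6.63 and 6.82 (-2.18 ± 0.16, adjusted p = 1.58e-08). All were widely apart. The summed signal was 1240.2 to 1386.5 in K19-Nog/C2mE and 2508 to 2780.8 in K19-Nog stomachs, against 1530 to 1614.2 in wild-type. Grp, gastrin-releasing peptide, a transmitter of gastric nerves, fell by 4.04 ± 0.41 (5.04, 5.21 and 4.73 against 9.25 and 8.81, adjusted p = 4.95e-07) and was 3.58 higher in K19-Nog than in wild-type stomachs (adjusted p = 2.60e-05, and 0.000259 without the 9 arrays).

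Adipocyte genes fell in 5 of 9 cases. Plin4, a lipid droplet protein, read 5.47, 5.41 and 4.85 against 7.97 and 8.62 (-3.05 ± 0.21, adjusted p = 7.79e-09). Adipoq, adiponectin, read 3.54, 3.69 and 3.36 against 7.52 and 10.76 (-5.61 ± 0.90, adjusted p = 8.73e-05), and Fabp4, a fatty acid binding protein, 9.88, 9.56 and 10.62 against 10.98 and 12.03 (-1.49 ± 0.38, adjusted p = 0.00618, and 0.164 without K19-Nog array 2). Here the K19-Nog stomachs differed from each other, array 2 carrying the higher signal in each gene. Adipoq was also 5.57 higher in K19-Nog than in wild-type stomachs (adjusted p = 0.000938, but 0.0521 without K19-Nog array 2 and 0.0613 without the 9 arrays). The summed signal was 1934.4 to 2014.2 in K19-Nog/C2mE and 12905.2 to 16733.8 in K19-Nog stomachs, against 9289.7 to 11329.4 in wild-type. This sum was also low with C2mE on the other backgrounds, 1775.2 to 3652.1 in K19-C2mE and 850.5 to 1602.9 in K19-Wnt1/C2mE stomachs. In K19-Wnt1 stomachs the sum was 8828.3 to 10589.9.

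**Figure D4:**
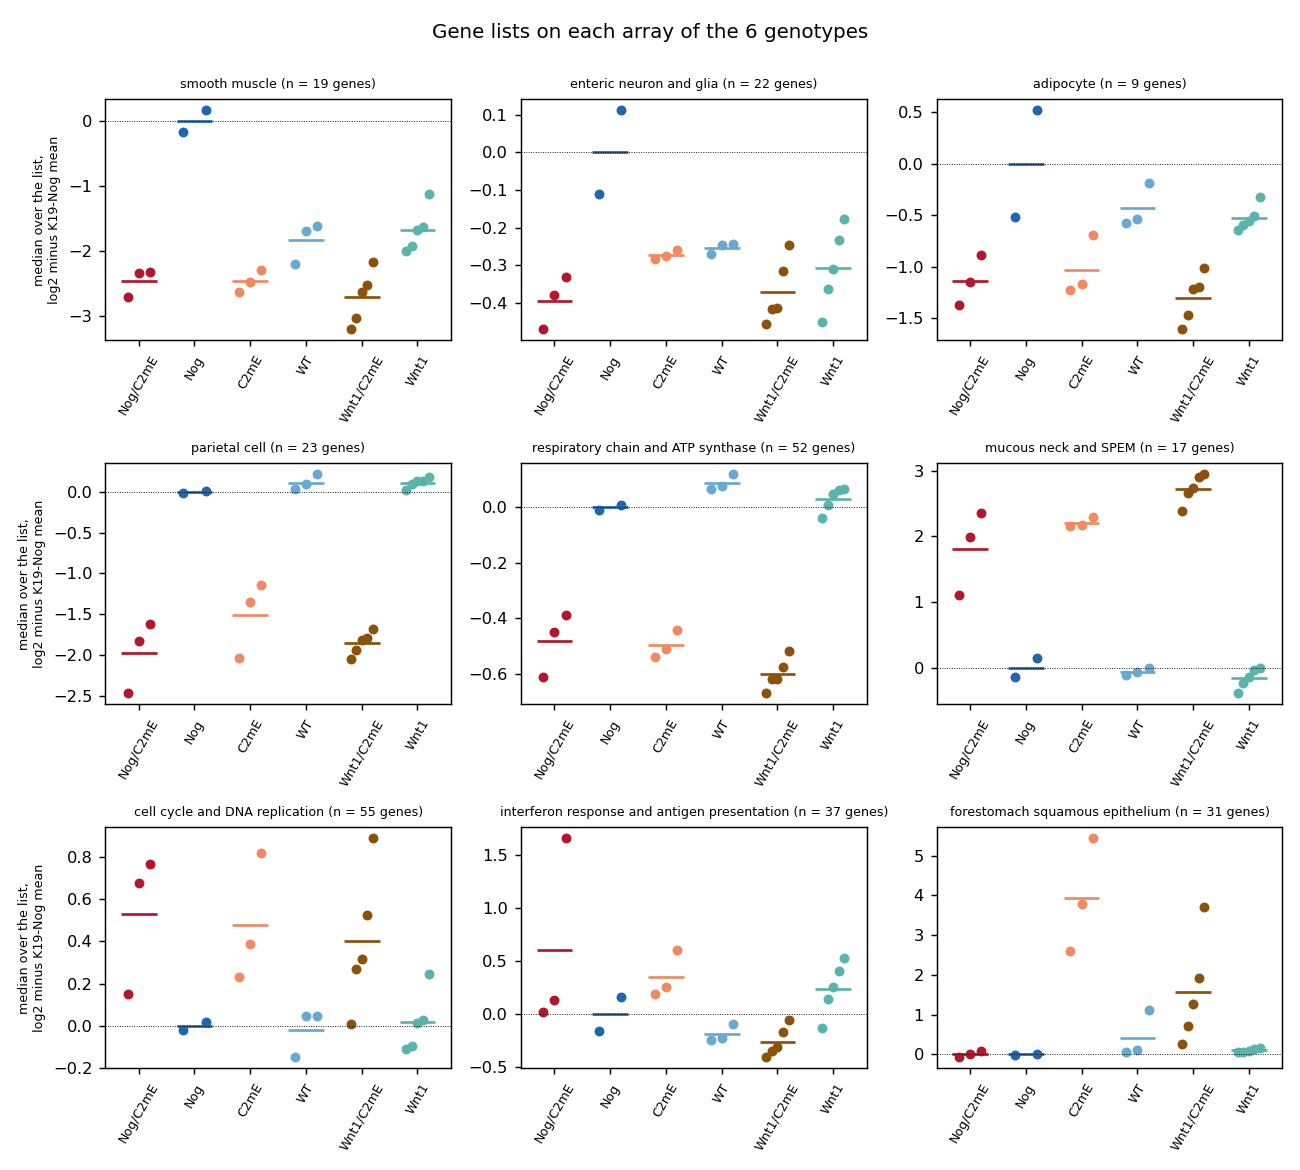
Median log2 signal of 9 gene lists on each array, relative to the mean of the K19-Nog arrays, in the 6 genotypes. Points are single mice sorted by value within a genotype and lines are means of the arrays. In the smooth muscle panel the 2 K19-Nog stomachs lie above every other mouse, and in the mucous neck and SPEM panel the genotypes with C2mE lie above those without.

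Other stromal lists moved less. Of 15 fibroblast genes 6 fell and 1 rose, with differences of -2.15 ± 0.22 and -1.76 ± 0.21 for the fibroblast genes Pi16 and Dpt (adjusted p = 5.98e-07 and 2.92e-06). Of 14 endothelial genes 4 fell and 0 rose, Lyve1, a lymphatic receptor, by 1.31 ± 0.25 (adjusted p = 0.000526), and this count was 9 without K19-Nog/C2mE array 3 and 2 without K19-Nog array 1 or K19-Nog/C2mE array 1. Squamous genes of the forestomach were near their K19-Nog level, with 1 of 31 passing. That 1 was Ivl, involucrin (7.23, 7.73 and 8.47 against 4.22 and 4.84, 3.28 ± 0.87, adjusted p = 0.00774), lost without K19-Nog array 1 (0.0821) or the 9 arrays (0.0569). Their summed signal was 8044.9 to 9598.7 in K19-Nog/C2mE and 6623.6 to 8014.9 in K19-Nog stomachs, whereas it ran from 25445.7 to 112840 in K19-C2mE stomachs.

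Lipid and detoxification genes completed the list of metabolic changes. Of 25 genes for sterol synthesis and lipid supply 10 rose and 3 fell. Mvd, an enzyme of the mevalonate pathway, read 8.30, 8.11 and 8.13 in K19-Nog/C2mE against 7.17 and 6.78 in K19-Nog stomachs (1.20 ± 0.18, adjusted p = 3.47e-05), and the sterol regulator Srebf2 rose by 0.83 ± 0.15 (adjusted p = 0.000229). Apoa1 and Apoa4, apolipoproteins, fell, Apoa4 to 6.93, 7.22 and 6.04 against 10.29 and 10.73 (-3.78 ± 0.34, adjusted p = 1.34e-07) and Apoa1 by 4.87 ± 1.07 (adjusted p = 0.00183). The genotypes were apart in these genes. The 10 rises became 6 without K19-Nog array 2. Of 31 xenobiotic and retinoid genes 7 rose and 6 fell, beside 14% and 13.7% of all genes. Gsta3, a glutathione transferase, rose by 2.71 ± 0.42 (11.67, 10.75 and 11.88 against 8.98 and 8.48, adjusted p = 5.99e-05). Aldh1a3 and Aldh1a2, which make retinoic acid, went opposite ways, by 2.87 ± 0.71 (adjusted p = 0.00455, and 0.0697 without K19-Nog array 1) and -1.85 ± 0.21 (adjusted p = 2.00e-06).

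Secretory pathway genes were mixed, with 7 of 31 up and 3 down (all genes, 14% and 13.7%). Ern2, a stress sensor of mucous cells, rose by 1.23 ± 0.25 (9.78, 9.81 and 9.84 against 8.62 and 8.53, adjusted p = 0.000814), while Derl3, of the degradation machinery of the endoplasmic reticulum, fell by 1.56 ± 0.19 (8.37, 8.21 and 8.50 against 10.08 and 9.78, adjusted p = 4.22e-06). Both were apart between the genotypes. The 7 rises became 3 without K19-Nog array 2. Among single genes with links to gastric cancer, Cdh1, E-cadherin, and Dcc did not pass (0.19 ± 0.09 and -0.14 ± 0.12, adjusted p = 0.141 and 0.464). Ramp2, a co-receptor of adrenomedullin, read 7.51, 7.56 and 8.32 against 8.18 and 8.23 and did not pass (adjusted p = 0.208) except without K19-Nog/C2mE array 3 (adjusted p = 0.0224).

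Finally, it was tested whether C2mE made a different change on the K19-Nog background than on another. The effect differed from that of K19-C2mE against wild-type in 222 genes (1.22%), with 5 higher (0.0275%) and 217 lower (1.19%) on the K19-Nog background. It differed from that of K19-Wnt1/C2mE against K19-Wnt1 in 885 genes (4.86%), 315 higher (1.73%) and 570 lower (3.13%). The 2 tests share the K19-Nog/C2mE and K19-Nog arrays. Few of these calls were made without the 9 arrays whose sex markers oppose their label: without them, which leaves 1 array each of K19-C2mE, wild-type and K19-Wnt1, the counts were 13 and 36, of which 11 and 35 were among the calls above. Without K19-Nog array 1 they were 93 and 300, without K19-Nog array 2 the second was 403, and without K19-C2mE array 2 or wild-type array 1 the first was 357 or 139. Without K19-Nog/C2mE array 1 or 3 the second was 493 or 1375.

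Smooth muscle and nerve genes were among the lower effects. Of 19 smooth muscle genes 16 fell further on the K19-Nog than on the wild-type background and 17 further than on the K19-Wnt1 background, which became 1 and 4 without the 9 arrays, and 6 and 6 without K19-Nog array 1. Of 22 neuron and glia genes 5 and 8 did, or 3 and 4 without the 9 arrays. For Grp the effects were -4.04 on the K19-Nog background and 0.84 on the wild-type background, a difference of -4.88 (adjusted p = 6.86e-05) that also passed without the 9 arrays. For Vip they were -4.29 and -0.76, a difference of -3.53 (adjusted p = 0.000385, and 0.000512 without the 9 arrays). Squamous and airway-type genes gave the widest gaps: Krt14, a basal keratin, read 4.63, 4.55 and 4.40 in K19-Nog/C2mE against 4.96 and 4.94 in K19-Nog stomachs, and its effect on the wild-type background was 5.91 (difference -6.34, adjusted p = 0.0122). Its call was lost without the 9 arrays (adjusted p = 0.967) and without K19-Nog array 1 or 2 (0.0725 and 0.0518).

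**Figure D5:**
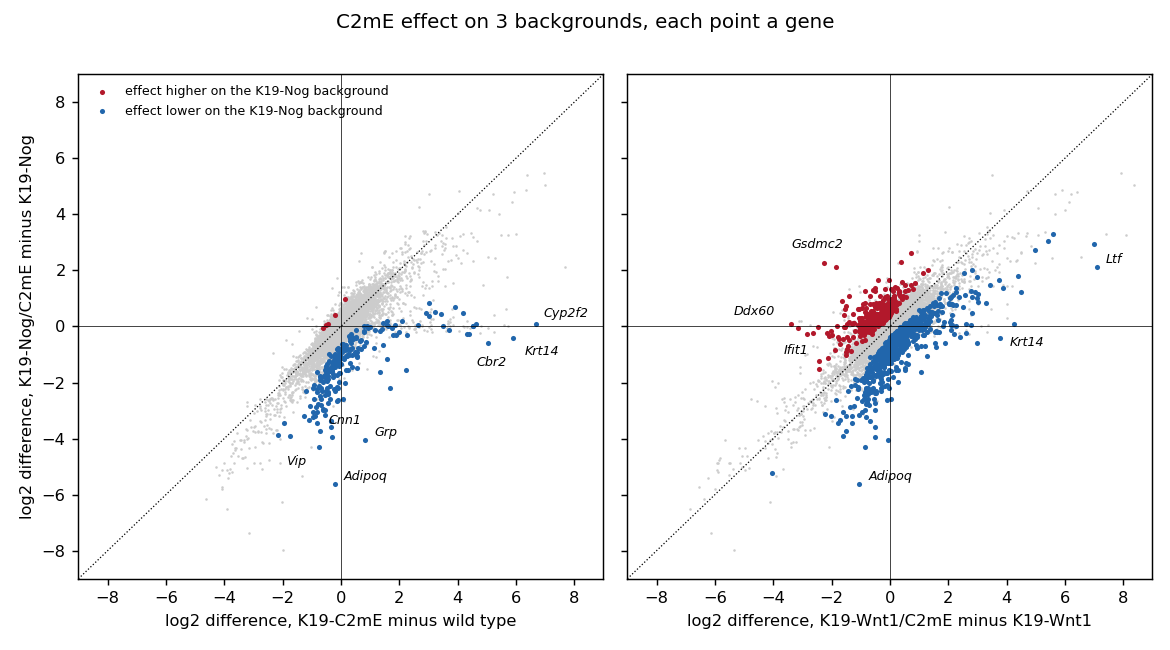
Effect of C2mE on the K19-Nog background (vertical axis, log2 difference, K19-Nog/C2mE minus K19-Nog) against its effect on the wild-type background (left, K19-C2mE minus wild-type) and on the K19-Wnt1 background (right, K19-Wnt1/C2mE minus K19-Wnt1), 1 point per gene. Red and blue points are genes whose effect was higher or lower on the K19-Nog background by the test of the difference, with all 21 arrays: 5 and 217 on the left, 315 and 570 on the right.

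The higher effects against the K19-Wnt1 background included interferon genes, 7 of 37 higher and 0 lower, or 3 higher without K19-Nog array 1 and 5 without array 2. Without the 9 arrays 0 of the 37 passed. With all arrays, 0 of the 37 were higher and 0 lower against the wild-type background. The median effect of C2mE on the list was 0.62 on the K19-Nog, 0.56 on the wild-type and -0.50 on the K19-Wnt1 background. Ddx60, an antiviral helicase that is not among the 37, did not pass between K19-Nog/C2mE and K19-Nog stomachs (7.21, 7.17 and 7.27 against 7.18 and 7.06, 0.09 ± 0.31), while C2mE lowered it by 3.38 on the K19-Wnt1 background. That difference of 3.47 (adjusted p = 3.83e-05) also passed without the 9 arrays. Oas1a, another oligoadenylate synthetase, read 10.20, 10.16 and 10.37 against 9.39 and 9.76 (0.67 ± 0.25, adjusted p = 0.0502). It passed, at 0.0286 to 0.0492, without wild-type array 1 or 2, K19-C2mE array 1 or 3, K19-Wnt1 array 2 or 6 or K19-Wnt1/C2mE array 3, and at 0.0179 without the 9 arrays. Its effect differed from the K19-Wnt1 background by 1.62 (adjusted p = 0.00342, but 0.0519 without K19-Nog array 1 and 0.149 without the 9 arrays). Ifit1, an interferon-induced RNA-binding protein, overlapped between the genotypes (6.22, 6.92 and 7.32 against 7.29 and 6.49, -0.07 ± 0.49) and fell by 3.14 on the K19-Wnt1 background (difference 3.07, adjusted p = 0.00485, and 0.321 without the 9 arrays and 0.0586 without K19-Nog array 2).

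The interferon response element was searched in the same 300-base windows as GAAA followed by any 2 bases and GAAA, on both strands, overlapping matches counted. It was found for 11 of 28 list genes with a promoter, against 3.44% of all promoters. The 28 genes had 35 promoters, and again a gene counted if any of them matched. None of the 11 genes with a match passed in K19-Nog/C2mE against K19-Nog stomachs, where 27.7% of all genes did, while 7 of the 17 without a match rose. Other motifs were searched in the same way and matched few genes. The CArG box (CC, a run of A or T, GG) matched 1 of 15 smooth muscle genes (1.63% of all promoters), and the 14 without a match fell. The estrogen-related receptor element (TNAAGGTCA) matched 2 of 40 respiratory chain genes and 0 of 35 genes of the mitochondrial regulator list (1.28% of all promoters). The windows of Ifit1 (chr19:34640639-34640938, plus strand, 2 matches) and Oas1a (chr5:120907476-120907775, minus strand, 2 overlapping matches) are shown on the strand of the gene, with bases of a match in capitals, because their effects differed between the K19-Nog and K19-Wnt1 backgrounds in the model of all arrays. Stat2, with 1 match, also differed there (1.16, limma adjusted p = 0.00655), and its window is not shown.
Ifit1: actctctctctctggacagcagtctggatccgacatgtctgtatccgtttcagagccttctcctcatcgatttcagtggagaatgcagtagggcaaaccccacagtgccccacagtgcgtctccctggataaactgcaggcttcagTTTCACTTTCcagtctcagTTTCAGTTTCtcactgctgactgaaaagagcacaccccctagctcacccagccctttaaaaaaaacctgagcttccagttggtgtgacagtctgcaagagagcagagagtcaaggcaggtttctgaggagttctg
Oas1a: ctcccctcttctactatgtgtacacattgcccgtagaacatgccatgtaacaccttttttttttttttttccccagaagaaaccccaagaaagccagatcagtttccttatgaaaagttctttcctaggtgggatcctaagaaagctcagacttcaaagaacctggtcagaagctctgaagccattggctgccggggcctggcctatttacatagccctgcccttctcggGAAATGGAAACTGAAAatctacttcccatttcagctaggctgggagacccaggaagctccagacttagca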

How the data were processed

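RNA from the glandular stomach of 21 mice of 6 genotypes was hybridised to Affymetrix whole-genome mouse arrays, 1 array per mouse. The deposited values are linear intensities that the authors obtained by RMA, with background correction, quantile normalization and summary per probe set. A second deposited table holds log10 ratios that the authors took of each intensity over the wild-type mean, limited to 2 (169 values lie at that limit), and was used as an alternative. Intensities hold no read depth, so the number of arrays limits the precision. The log2 intensities of 45037 probe sets were fitted with limma (version 3.58.1, R version 4.3.3), with 1 coefficient per genotype over all 21 arrays (15 residual degrees of freedom) and empirical Bayes moderation. Each of 18193 genes was represented by its brightest probe set, p-values were adjusted over these genes (Benjamini-Hochberg), and genes below 0.05 counted as changed. All tests are two-sided. Of the probe sets, 34945 had 1 gene in the platform annotation, 932 several and 9160 none. Where probe sets of a gene disagree, 34 changed genes had another probe set that passed in the opposite direction. The effect of C2mE was compared between backgrounds as a contrast of differences in the same model. The model was tested on simulated data of 45037 probe sets. Of 67 probe sets planted with a log2 change of 1, 83.6% were recovered in the comparison of K19-Nog/C2mE with K19-Nog.

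Named genes were the 15 largest rises and 15 largest falls without overlap, up to 6 changed members per list, the 5 largest in each direction of each difference test, and a set of genes named for the transgenes and for gastric cancer, of which Rock2 was not analysed here. Other list members are given by value. The comparison, the 43 gene lists (1122 genes) and the named genes were chosen with earlier results of these data known. Alternatives were a model of the compared groups only, a block on replicate number, removal of dim probe sets (which left 11580 genes), centred array medians, a variance trend with robust fitting, the log10 ratio table, the mean of probe sets per gene, adjustment over all probe sets, a 2-fold minimum, a plain equal-variance t-test of the compared arrays and each array left out in turn. Leaving out the 9 arrays with Y-linked signal, and arrays left out of the difference between K19-Nog and wild-type, were added after the data were seen. Promoters came from RefSeq (GRCm38.p6).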

Additional observations from a re-analysis of the deposited data

Results flagged for a closer look

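Each result here is a difference between the effect of C2mE on the K19-Nog background and its effect on another background, tested by limma's contrast of the differences with Benjamini-Hochberg adjustment over all genes, and given as a log2 difference. Against the wild-type background (K19-C2mE minus wild-type), the effect was higher on the K19-Nog background for Spink1 by 0.83 (adjusted p = 0.0192), Gm9895 by 0.62 (adjusted p = 0.0399), Lyzl1 by 0.58 (adjusted p = 0.0169), 1810008I18Rik by 0.56 (adjusted p = 0.0371) and Dcpp3 by 0.53 (adjusted p = 0.0231). It was lower for Cyp2f2 (-6.61, adjusted p = 0.000277), Krt14 (-6.34, adjusted p = 0.0122), Cbr2 (-5.61, adjusted p = 2.95e-05), Adipoq (-5.40, adjusted p = 0.0272) and Grp (-4.88, adjusted p = 6.86e-05). Without K19-Nog array 1 none of the 5 higher effects passed by limma (adjusted p = 0.107, 0.169, 0.166, 0.252 and 0.0561 in the order above), and without K19-Nog array 2 only Lyzl1 did. Over the 21 fits with 1 array left out, the call was lost in 5 for Spink1, 13 for Gm9895, 2 for Lyzl1, 9 for 1810008I18Rik, 5 for Dcpp3, 2 for Krt14 (both K19-Nog arrays) and 6 for Adipoq, and in 0 for Cyp2f2, Cbr2 and Grp. Adipoq was -3.78 without K19-Nog array 2 (adjusted p = 0.26), and was also lost without each wild-type array, and with the replicate number as a block (adjusted p = 0.0814).

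Against the K19-Wnt1 background (K19-Wnt1/C2mE minus K19-Wnt1), the effect was higher on the K19-Nog background for Gsdmc2 (4.54, adjusted p = 0.00742), Ifit1bl1 (3.96, adjusted p = 0.00177), Ddx60 (3.47, adjusted p = 3.83e-05), Ifit1 (3.07, adjusted p = 0.00485) and Fabp2 (2.55, adjusted p = 0.0252). It was lower for Ltf (-4.97, adjusted p = 0.0413), Adipoq (-4.56, adjusted p = 0.0191), Krt14 (-4.22, adjusted p = 0.0381), Cyp2f2 (-4.17, adjusted p = 0.00355) and Wfdc18 (-4.05, adjusted p = 0.0119). With 1 array left out, the call was lost in 15 of 21 fits for Ltf, 11 for Krt14, 4 for Fabp2, 2 for Wfdc18 and 1 each for Gsdmc2, Ifit1 and Adipoq, and in 0 for Ifit1bl1, Ddx60 and Cyp2f2. Without K19-Nog array 2, Ltf was -3.68 (adjusted p = 0.301), Adipoq -2.94 (0.225), Krt14 -4.23 (0.144), Wfdc18 -3.85 (0.0785), Fabp2 2.65 (0.0894) and Ifit1 2.67 (0.0586). Without K19-Nog array 1, Ltf was -6.25 (adjusted p = 0.0522), Krt14 -4.21 (0.148), Wfdc18 -4.24 (0.0556), Fabp2 2.45 (0.126) and Gsdmc2 4.11 (0.0765). Without the 9 arrays whose Y-linked signal opposes their label, Grp against the wild-type background and Ddx60 against the K19-Wnt1 background were the 2 of these 20 differences that passed, and Cbr2 then had an adjusted p of 0.0665.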

How the results depend on the processing

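Among the genes and lists named, no difference that passed the test changed its direction under an alternative that was run. The count of changed genes (5034) was 1396 with a 2-fold minimum. It was 396 by a plain equal-variance t-test of the compared arrays after Benjamini-Hochberg adjustment, and 3126 to 5148 with 1 array left out. The count of changed probe sets (9414) was 2536, 67 and 5540 to 9731 under the same settings, with 6187 without K19-Nog array 2. Genes whose effect differed from the wild-type background (222) numbered 112 with dim probe sets left out and 93 to 357 with 1 array left out. Genes whose effect differed from the K19-Wnt1 background (885) numbered 365 with a 2-fold minimum, 589 with only the compared groups in the model and 300 to 1375 with 1 array left out. Without the 9 arrays with Y-linked signal, an alternative chosen after seeing the data, these difference counts were 13 and 36, while 3695 genes changed between K19-Nog/C2mE and K19-Nog, of which 3642 were among the 5034. The cause of these moves was not tested. With the replicate number as a block the counts were 4951 genes, 9514 probe sets and 193 and 883 differences. Only 2 numbers are shared by the genotypes compared, and deviations of same-numbered arrays correlated at 0.10 and -0.11, so the numbers were not taken as a pairing. Of 399 values for genes and lists, 311 kept their side of the threshold or stayed within 1.5 times without K19-Nog array 1, 335 without K19-Nog array 2 and 324 without the 9 arrays. With 2 K19-Nog mice, small changes could be missed: 16.4% of simulated log2 changes of 0.5 were recovered in this comparison. The simulation held few changed probe sets among 45037, and the real data many more, so this share does not carry over to them. Small changes often passed there, as in 42 of 52 respiratory chain and ATP synthase genes at a median of -0.50.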
